A study of Mus musculus with 2 samples.

Results

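Macrophages, with any microglia among them, made up 706 of the 17149 cells that passed the cell filter in 2 single-cell RNA libraries of mouse dorsal root ganglia (DRG). The cells were chosen by their own counts. A cell was kept when C1qa, C1qb, C1qc and Tyrobp together held at least 0.3% of its unique molecular identifiers (UMIs, counts of captured RNA molecules) and the neuronal genes Snap25, Stmn2, Tubb3 and Prph together held under 0.4%. The gate took 186 of 8435 cells in the Ptges3 cKO library and 520 of 8714 in the Ptges3 flox library. The cKO library came from mice carrying Dhh CRE+ with Ptges3 flox/flox, and Dhh-driven Cre is known for its activity in the Schwann cell lineage. The flox library came from Ptges3 flox/flox mice with no Cre listed, so both genotypes carry the floxed alleles. Ganglia of all axial levels were taken at postnatal day 4, enzymatically dissociated and run on the 10x Genomics 3′ v3.1 platform with a target of 10000 cells. Each genotype has 1 library, and the labels give neither the number of animals behind it nor whether animals were pooled. No difference between the genotypes could be tested, and every interval below covers counting error only.

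Resident macrophages of peripheral nerves and ganglia lie close to glia, neurons and vessels. They depend on the receptor CSF1R, clear debris with complement, Fc and scavenger receptors, and release chemokines that draw other leukocytes. Microglia are the macrophages of the central nervous system and are marked by the transcription factor Sall1, the membrane protein Tmem119 and the purinergic receptor P2ry12. The mannose receptor Mrc1 and the platelet factor Pf4 mark many macrophages outside the brain and spinal cord parenchyma and are nearly absent from parenchymal microglia. Ptges3 encodes p23, a co-chaperone of HSP90 that also acts as a cytosolic prostaglandin E synthase, and prostaglandin E2 is a lipid signal that macrophages both make and sense.

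The genes used to choose the cells sit close together in part. C1qb (ENSMUSG00000036905) lies at chr4:136880129-136886187, C1qc (ENSMUSG00000036896) at chr4:136889804-136893065 and C1qa (ENSMUSG00000036887) at chr4:136895917-136898803, all on the minus strand of GRCm38 (GENCODE vM21). Tyrobp (ENSMUSG00000030579), which encodes the signalling adaptor DAP12, lies at chr7:30413760-30417585 on the plus strand. PU.1, encoded by Spi1, is the lineage factor of macrophages and binds a core written GAGGAA. Read on the opposite strand, that core is TTCCTC. RefSeq promoter windows (GRCm38.p6, 250 bases before to 50 after a gene's start) were searched for this core on both strands. It was present in 9289 of all 32851 windows (28.3%). Among the 100 genes most specific to the gated cells, 77 matched a symbol in the table with 85 windows, and 50 of these windows (58.8%) held the core. The 4 windows below belong to complement genes of the gate and to Mrc1 and Pf4, and capitals mark each core. The 3 Sall1 windows and the 1 P2ry12 window of the table held 0 cores and are not printed. A match is a string of letters and was not tested as a bound site.
C1qb (chr4:136886151-136886450, minus strand): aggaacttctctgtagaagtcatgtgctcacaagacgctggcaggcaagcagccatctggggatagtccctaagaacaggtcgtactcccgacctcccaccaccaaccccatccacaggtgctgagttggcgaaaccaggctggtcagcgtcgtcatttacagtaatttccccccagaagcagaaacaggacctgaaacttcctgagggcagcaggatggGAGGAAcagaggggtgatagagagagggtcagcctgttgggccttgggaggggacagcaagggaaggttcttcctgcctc
C1qc (chr4:136892865-136893164, minus strand): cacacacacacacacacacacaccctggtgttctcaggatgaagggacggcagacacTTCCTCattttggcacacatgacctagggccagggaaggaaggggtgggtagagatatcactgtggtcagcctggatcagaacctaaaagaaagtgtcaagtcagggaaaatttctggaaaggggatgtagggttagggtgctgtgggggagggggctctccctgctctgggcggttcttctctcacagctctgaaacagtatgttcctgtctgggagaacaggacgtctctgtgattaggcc
Mrc1 (chr2:14229164-14229463, plus strand): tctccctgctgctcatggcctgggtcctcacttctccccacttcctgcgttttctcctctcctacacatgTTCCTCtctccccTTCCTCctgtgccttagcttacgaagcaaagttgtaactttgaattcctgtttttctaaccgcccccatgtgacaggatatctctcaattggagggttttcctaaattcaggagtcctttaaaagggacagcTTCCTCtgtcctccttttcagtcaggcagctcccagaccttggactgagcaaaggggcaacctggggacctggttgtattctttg
Pf4 (chr5:90772185-90772484, plus strand): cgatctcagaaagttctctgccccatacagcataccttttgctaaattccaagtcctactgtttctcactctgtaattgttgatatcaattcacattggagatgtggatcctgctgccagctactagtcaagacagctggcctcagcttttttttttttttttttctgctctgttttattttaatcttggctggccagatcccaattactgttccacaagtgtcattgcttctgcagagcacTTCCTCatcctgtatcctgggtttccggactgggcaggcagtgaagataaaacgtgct

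The gated cells carried the markers of their label, and the values that chose them are given as a description. The gate genes held a median of 1.33% of UMIs in gated cKO cells and 1.40% in gated flox cells, and a median of 0% in the remaining cells of either library. Just inside the limit, the lowest cells were at 0.30%, 0.322% and 0.375% in cKO and at 0.301%, 0.301% and 0.302% in flox. Just outside it, the highest were at 0.296%, 0.288% and 0.288% in cKO and at 0.292%, 0.287% and 0.286% in flox. Genes outside the rule were measured as well. Csf1r, the receptor for colony-stimulating factor 1, was detected in 87.1% of gated cKO cells and 88.1% of gated flox cells. After each cell was thinned to 1000 UMIs, a Csf1r UMI was found in 98 of 186 gated cKO cells and 260 of 520 gated flox cells, against 19 of 8249 other cKO cells and 16 of 8194 other flox cells. Spi1 was detected in 80.6% of gated cKO cells and 81.3% of gated flox cells before thinning.

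The 15 genes most specific to the gated cells, by the ratio of their UMIs per 1000000 UMIs (counts per 1000000, CPM) to that in all other cells, were Ccl24, Fcna, Ccl4, Fcgr1, Ccl3, Cd163, Ms4a6d, Fcrls, Il1a, Clec10a, C1qb, C1qa, Adgre1, Ms4a7 and Mrc1. Several encode surface receptors of macrophages, among them the haemoglobin scavenger receptor Cd163, the high-affinity IgG receptor Fcgr1 and Adgre1, the F4/80 antigen. Adgre1 was at 258.3 CPM in gated cKO cells and 183.4 CPM in gated flox cells. Fcrls was at 824 CPM in gated cKO cells and 554 CPM in gated flox cells.

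The 2 libraries differed in depth and in other cell types. Over all cells that passed the filter the median was 4354 UMIs in cKO and 7210 in flox, and over gated cells it was 3838 UMIs in cKO and 4863 in flox. The gated cells held 797502 UMIs in cKO and 3200188 in flox. The libraries shared 23 barcodes, of which 16 passed the filter and 0 were gated. Cells with at least 3 of 4 oligodendrocyte genes numbered 0 in cKO and 318 in flox, and cells with at least 3 of 4 astrocyte genes numbered 4 in cKO and 224 in flox. Oligodendrocytes and astrocytes are cells of the central nervous system, as are parenchymal microglia.

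The gate also admitted cells with other identities. The 8 glial markers of the Schwann lineage together held at least 1% of UMIs in 1 gated cKO cell and 59 gated flox cells. Those 59 flox cells had a median of 12526 UMIs, and 45 of them were among the highest doublet scores. Neutrophil markers reached 1% in 5 cKO cells and 12 flox cells. C1q genes were under 0.1% of UMIs in 6 gated cKO cells and 64 gated flox cells, which Tyrobp had brought in. In these cells the 8 monocyte markers held a median of 0.157% of UMIs in the cKO cells and 0.301% in the flox cells, and the 8 neutrophil markers a median of 27.9% in the cKO cells and 0% in the flox cells. Single flox cells reached 34.6% from neutrophil markers, 46.2% from erythroid markers and 29.7% from mast cell markers. A stricter set, defined after the data were seen, therefore required at least 0.3% of UMIs from C1q genes alone, under 1% from the markers of each other class and at least 1 Mrc1 or Pf4 UMI. It held 162 cKO cells with 721308 UMIs and 302 flox cells with 1773701 UMIs. In it the summed level of glial markers was 778 CPM in cKO cells and 1794 CPM in flox cells, and that of neutrophil markers was 12.5 CPM in cKO cells and 5.64 CPM in flox cells.

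Most gated cKO cells carried Mrc1 or Pf4, whereas a group of flox cells carried microglial markers instead. Mrc1 or Pf4 was detected in 167 of 186 gated cKO cells (89.8%, 95% Clopper-Pearson interval 84.5% to 93.7%) and in 380 of 520 gated flox cells (73.1%, 69.0% to 76.8%). A Sall1, Tmem119 or P2ry12 UMI was detected in 60 of 186 gated cKO cells (32.3%, 25.6% to 39.5%) and in 249 of 520 gated flox cells (47.9%, 43.5% to 52.3%). The 2 kinds of marker overlapped in many cells. Markers of both kinds were found in 59 cKO cells and 183 flox cells, Mrc1 or Pf4 alone in 108 cKO cells and 197 flox cells, and neither in 18 cKO cells and 74 flox cells. Microglial markers without Mrc1 or Pf4 were found in 1 cKO cell (0.538%, 0.0136% to 2.96%) and 66 flox cells (12.7%, 9.95% to 15.9%). The gap persisted at equal depth. With every cell thinned to 1000 UMIs, cells with microglial markers only numbered 2 in cKO and 49 in flox.

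Free RNA can place such UMIs in cells that do not make them, so the other cells, with a median of 4373 UMIs in cKO and 7432 in flox, are given beside the gated ones. After thinning, any microglial marker was found in 11.8% of gated cKO cells and 20.0% of gated flox cells, against 2.36% of other cKO cells and 3.54% of other flox cells. P2ry12 stood above these levels in both libraries, with 16 of 186 thinned gated cKO cells and 83 of 520 thinned gated flox cells, against 0.776% of other cKO cells and 0.744% of other flox cells. Tmem119 was found in 8 of 186 thinned gated cKO cells and 29 of 520 thinned gated flox cells, against 1.56% of other cKO cells and 2.26% of other flox cells. The Tmem119 intervals were 1.87% to 8.30% in gated cKO cells and 3.77% to 7.91% in gated flox cells. Sall1 was found in 0 of 186 gated cKO cells, which allows up to 1.96% of cells with a UMI and does not bound the cells that express it, and in 26 of 520 gated flox cells (3.29% to 7.24%). Of those 26 flox cells, 5 also held Mrc1 or Pf4. After thinning it was found in 0 of 186 gated cKO cells and 6 of 520 gated flox cells, against 0.0364% of other cKO cells and 0.537% of other flox cells.

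**Figure D1:**
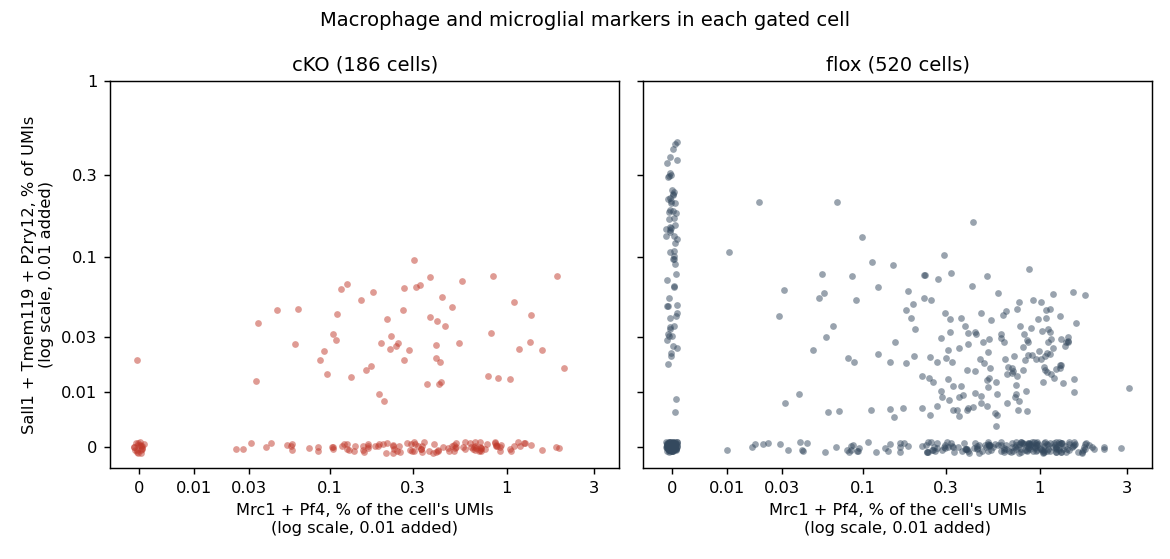
Each point is 1 gated cell, with the share of its UMIs from Mrc1 and Pf4 on the x axis and from Sall1, Tmem119 and P2ry12 on the y axis (percent, log scales with 0.01 added and slight jitter), for the cKO library on the left and the flox library on the right. The column of flox cells at 0 on the x axis and above 0 on the y axis is the group of 66 cells with microglial markers only, of which the cKO library has 1.

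The flox cells with microglial markers only were microglia-like by genes that the split did not use. Among cells with at least 0.3% C1q UMIs and under 1% from other classes, 53 flox cells held microglial markers only (196662 UMIs) and 160 held Mrc1 or Pf4 only (833876 UMIs). Siglech, a sialic acid-binding lectin, was at 341 CPM (95% Poisson interval 264 to 433) in the microglia-like cells and 8.39 CPM (3.38 to 17.3) in the Mrc1 or Pf4 cells. The intervals did not overlap. Before the restriction, 41 of the 66 flox cells held Siglech. Olfml3, a secreted olfactomedin protein, was 26.7-fold higher in the microglia-like cells, P2ry13 8.06-fold and Gpr34 4.99-fold. The fractalkine receptor Cx3cr1 was at 1103 CPM in the microglia-like cells and 325 CPM in the Mrc1 or Pf4 cells. The lens crystallin gene Crybb1, a marker of young microglia, was at 915 CPM in the microglia-like cells and 20.4 CPM in the Mrc1 or Pf4 cells.

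The genes that ran the other way include markers known from macrophages along vessels and at tissue borders. The hyaluronan receptor Lyve1 had 0 UMIs in the microglia-like cells against 860 in the Mrc1 or Pf4 cells, at least 67.6-fold lower with a floor of 3 UMIs over the group. The coagulation factor gene F13a1 had 0 UMIs in the microglia-like cells against 839 in the Mrc1 or Pf4 cells, at least 66.0-fold lower. Cd163 had 0 UMIs in the microglia-like cells against 155 in the Mrc1 or Pf4 cells, at least 12.2-fold lower. The folate receptor Folr2 was at 5.08 CPM (1 UMI) in the microglia-like cells and 519 CPM in the Mrc1 or Pf4 cells, and the endocytic adaptor Dab2 was at 35.6 CPM in the microglia-like cells and 1230 CPM in the Mrc1 or Pf4 cells. Ifitm3, an interferon-induced membrane protein, was at 91.5 CPM in the microglia-like cells and 1619 CPM in the Mrc1 or Pf4 cells. C1qa, which the gate used, was at 5431 CPM in the microglia-like cells and 3930 CPM in the Mrc1 or Pf4 cells. Of 1584 genes with at least 100 UMIs over these cells, 90 (5.68%) were at least 2-fold higher and 183 (11.6%) at least 2-fold lower in the microglia-like cells. Both groups come from 1 library and were split on measured genes, so these values describe the cells and carry no test.

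**Figure D2:**
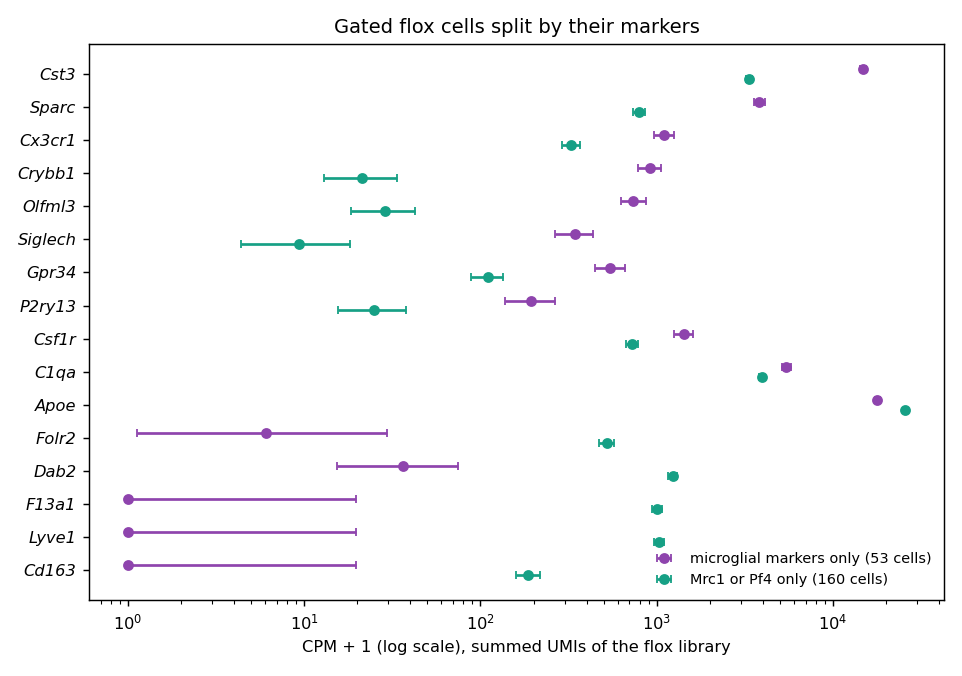
Levels in the 53 flox cells with microglial markers only and the 160 flox cells with Mrc1 or Pf4 only, in CPM of summed UMIs with 1 added on a log axis and 95% Poisson intervals. Crybb1, Olfml3 and Siglech lie to the right in the microglia-like cells, whereas Lyve1, F13a1 and Cd163 have no UMI there and Csf1r, C1qa and Apoe are high in both groups.

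Gated cells were a smaller share of the cKO library. They made up 2.21% of its cells (1.90% to 2.54%), against 5.97% of flox cells (5.48% to 6.49%), a log2 ratio of -1.44 (-1.69 to -1.19). Neurons are part of that denominator. Of cells under the neuronal limit, gated cells were 3.70% in cKO and 7.51% in flox, a log2 ratio of -1.02. Removing cells with microglial markers and no Mrc1 or Pf4 left 2.19% of cKO cells and 5.21% of flox cells, a log2 ratio of -1.25. Removing every cell with a Sall1, Tmem119 or P2ry12 UMI left 1.49% of cKO cells and 3.11% of flox cells, a log2 ratio of -1.06. In the strict set the shares were 1.92% of cKO cells and 3.47% of flox cells, a log2 ratio of -0.85 (-1.14 to -0.57). The share was lower in cKO under each of these choices, by amounts that depended on them. Oligodendrocytes and astrocytes, counted above, were also fewer in cKO, and their part in these shares was not tested.

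Over all gated cells, the genes with the highest and lowest ratios included markers of the other cell classes named above. Among 5298 genes with at least 100 UMIs, 124 (2.34%) were at least 2-fold higher and 442 (8.34%) at least 2-fold lower in cKO, and the median log2 ratio over all of them was -0.14. The myelin gene Mbp was on the lower side, at 94.0 CPM in gated cKO cells and 2531 CPM in gated flox cells. In the strict set Mbp was at 88.7 CPM in cKO cells and 443 CPM in flox cells. The class II gene H2-Aa had 0 UMIs in gated cKO cells and 132 in gated flox cells, at least 11.0-fold lower, but only 17 of those 132 UMIs lay in strict flox cells. On the higher side stood the neutrophil genes S100a8, at 3167 CPM in gated cKO cells and 457 CPM in gated flox cells, and Camp, at 325 CPM in gated cKO cells and 21.9 CPM in gated flox cells. S100a8 had 7 UMIs in strict cKO cells and 6 in strict flox cells, and in the remaining non-neuronal cells it was at 988 CPM in cKO and 73.5 CPM in flox. AY036118 and Lars2, which overlap or resemble ribosomal RNA sequence, were 6.66 and 2.99 higher on the log2 scale in gated cKO cells, and 6.28 and 3.21 higher in the remaining non-neuronal cKO cells. The strict set was used for the gene comparisons that follow.

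In the strict set, 68 of 3591 genes (1.89%) were at least 2-fold higher and 160 (4.46%) at least 2-fold lower in cKO cells, with a median log2 ratio of -0.07 over all 3591. Among genes at least 2-fold higher in the strict set than in other cells, ranked by the interval end nearer 0, the lowest 3 were monocyte-attracting chemokines. Ccl2 was at 452 CPM (404 to 504) in cKO cells and 3166 CPM (3083 to 3250) in flox cells, Ccl7 at 145.6 CPM (119 to 176) in cKO cells and 1470 CPM (1414 to 1528) in flox cells, and Ccl12 at 259 CPM (223 to 299) in cKO cells and 1937 CPM (1873 to 2003) in flox cells. The log2 ratios were -2.81 for Ccl2, -3.34 for Ccl7 and -2.90 for Ccl12, and no pair of intervals overlapped. The ranking used intervals of the same counts, so this lack of overlap adds nothing to it. The 3 genes encode ligands of the receptor CCR2 and lie in 1 cluster on chromosome 11, with Ccl2 (ENSMUSG00000035385) at chr11:82035571-82037453, Ccl7 (ENSMUSG00000035373) at chr11:82045712-82047525 and Ccl12 (ENSMUSG00000035352) at chr11:82101845-82103400, all on the plus strand of GRCm38. A smaller share of cKO cells carried them. After thinning, Ccl2 was found in 26.5% of strict cKO cells and 61.9% of strict flox cells, and Ccl12 in 13.6% of strict cKO cells and 53.6% of strict flox cells. Other cells gave 4.91% in cKO and 3.55% in flox for Ccl2, and 0.133% in cKO and 0.207% in flox for Ccl12. In the remaining non-neuronal cells the log2 ratios were 0.43 for Ccl2, -0.01 for Ccl7 and -3.38 for Ccl12. By summed CPM, most macrophage genes were lower there as well, with C1qa at -1.88, C1qb at -2.08 and Mrc1 at -1.85, whereas Ms4a7 was at 0.07. Shares of thinned other cells, neurons included, did not all run that way. C1qa was found in 0.933% of them in cKO and 0.549% in flox, and C1qb in 0.715% in cKO and 0.610% in flox. Mrc1 was found in 0.133% in cKO and 0.232% in flox. How far macrophage RNA outside the gate sets the ratios of those remaining cells was not tested.

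Of 14 measured chemokine genes, 8 were at least 2-fold lower and 1 at least 2-fold higher in strict cKO cells, with a median log2 ratio of -1.33. The same genes also had a negative median, -0.60, in the remaining non-neuronal cells, where 6 of them were at least 2-fold lower and 0 at least 2-fold higher. The neutrophil attractants Cxcl1 and Cxcl2 were lower, with log2 ratios of -2.17 (-2.59 to -1.78) and -1.41 (-1.53 to -1.30). The macrophage inflammatory protein genes Ccl3 and Ccl4 were at -1.25 and -0.82. Ccl24, an eosinophil attractant, was at 111 CPM in cKO cells and 391 CPM in flox cells. Cxcl10, an interferon-induced ligand of CXCR3, was at 77.6 CPM in cKO cells and 309.5 CPM in flox cells. The exception was Cxcl16, a transmembrane chemokine and scavenger receptor, at 312 CPM (273 to 355) in cKO cells and 107 CPM (91.9 to 123) in flox cells, a log2 ratio of 1.55.

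Genes of the interferon response were lower as a group. Of 14 measured, 9 were at least 2-fold lower and 0 at least 2-fold higher in strict cKO cells, with a median log2 ratio of -1.59. Isg15, a ubiquitin-like modifier, was at 36.0 CPM (23.5 to 52.8) in cKO cells and 201.8 CPM (181 to 224) in flox cells. Ifitm3 was at 270.3 CPM (234 to 311) in cKO cells and 1473 CPM (1417 to 1531) in flox cells. Irf7, the transcription factor that amplifies interferon production, was at 23.6 CPM in cKO cells and 122 CPM in flox cells. Bst2 was at -0.69, and Ifi207, which has close paralogs among which counting may divide reads, ran the other way at 0.82. In the remaining non-neuronal cells the same 14 genes had a median of -0.63.

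Immediate early genes, which cells switch on within minutes of stimulation or of tissue dissociation, were lower too. Of 23 measured, 12 were at least 2-fold lower and 0 at least 2-fold higher, with a median of -1.18, against a median of -0.31 for the same genes in the remaining non-neuronal cells. Fos was at 438 CPM (391 to 489) in strict cKO cells and 2438 CPM (2366 to 2512) in strict flox cells. The phosphatase gene Dusp1 was at 126 CPM in cKO cells and 612 CPM in flox cells, and Dusp6 at 27.7 CPM in cKO cells and 199 CPM in flox cells. Outside this list, the transcription factor gene Klf2 was at 222 CPM in cKO cells and 1107 CPM in flox cells. Not every member was low, with Atf3 at -0.24 and the stress sensor gene Gadd45b at 0.72.

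Most scavenger and efferocytosis genes were lower in strict cKO cells. Of 15 measured, 6 were at least 2-fold lower and 0 at least 2-fold higher, with a median log2 ratio of -0.67. Their median in the remaining non-neuronal cells was -0.36, and 4 of them were at least 2-fold lower there and 2 at least 2-fold higher. Lyve1 was at 154 CPM (127 to 185) in strict cKO cells and 973 CPM (928 to 1020) in strict flox cells, Folr2 at 166 CPM in cKO cells and 487 CPM in flox cells, and Timd4, a receptor for phosphatidylserine on apoptotic cells, at 6.93 CPM (5 UMIs) in cKO cells and 63.1 CPM in flox cells. In the remaining non-neuronal cells the log2 ratio was -0.88 for Lyve1 and 2.31 for Timd4. Timd4 was scarce there, with a UMI in 0 thinned other cells of either library. The bridging ligand Gas6 was at 229 CPM in strict cKO cells and 490 CPM in strict flox cells. Mrc1 and Pf4 themselves, which helped to choose these cells, had log2 ratios of -0.67 and -0.76. A smaller share of cKO cells carried the border-type receptors. A UMI of Lyve1, Folr2, Timd4 or Cd163 was found in 48 of 162 strict cKO cells (29.6%, 22.7% to 37.3%) and 196 of 302 strict flox cells (64.9%, 59.2% to 70.3%), and after thinning in 21.6% of cKO cells and 49.0% of flox cells. After thinning, Lyve1 alone was found in 9.88% of strict cKO cells and 36.1% of strict flox cells, against 0.255% of other cKO cells and 0.293% of other flox cells.

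The other differences were recomputed without those cells, a choice made after the data were seen. It left 114 cKO cells with 509896 UMIs and 106 flox cells with 514576 UMIs. The medians over the same genes were -0.85 for chemokines, -1.02 for the interferon response and -1.07 for immediate early genes. Ccl2 had a log2 ratio of -1.31 (-1.54 to -1.08), Ccl7 -2.24, Ccl12 -1.78, Isg15 -1.46, Ifitm3 -1.33 and Fos -2.19 (-2.41 to -1.98). Cxcl1 was no longer lower beyond its counting interval, at -0.28 (-0.85 to 0.29), and Mrc1 was at 0.01. The 11 scavenger genes other than the 4 used for the removal had a median of -0.32, and Cxcl16 was at 0.73 (0.39 to 1.06). Border-type cells in which none of the 4 genes was detected were not removed. Of other genes low in the microglia-like flox cells, Ccl24 was at -2.93, Fcna at -2.47 and Cd36 at -1.84, whereas Ms4a7 was at 0.41. How far a remaining difference in kinds of macrophage sets these ratios was not tested.

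**Figure D3:**
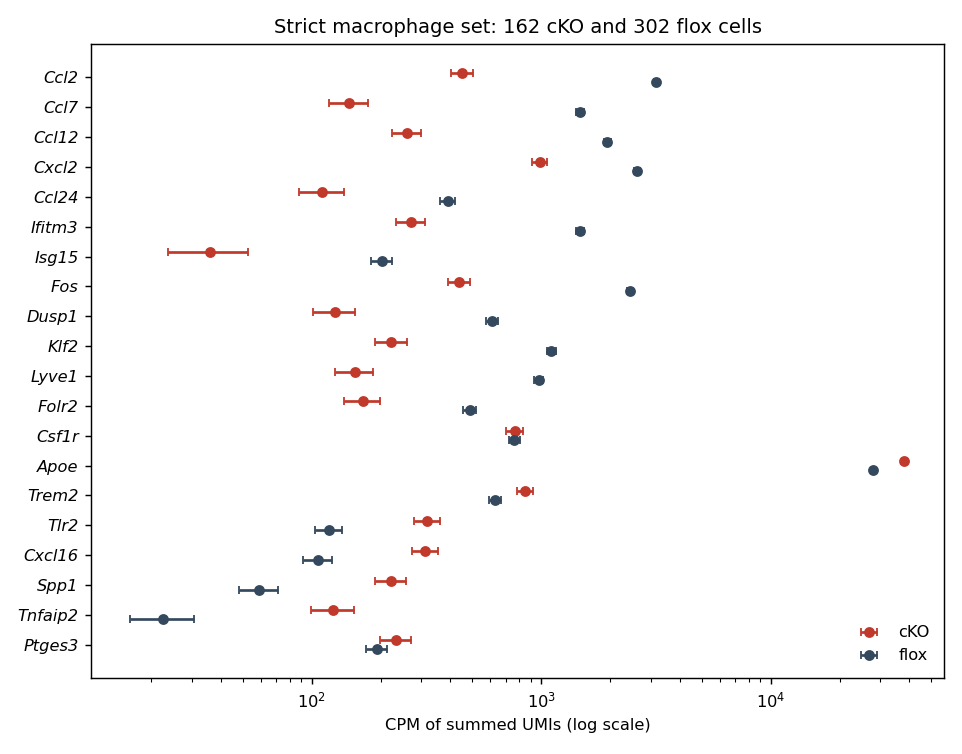
Levels of 20 genes in the strict set, in CPM of summed UMIs on a log axis with 95% Poisson intervals, for cKO cells (red) and flox cells (dark). The genes from Ccl2 to Folr2 lie lower in cKO, Csf1r and Ptges3 overlap, and Apoe, Trem2, Tlr2, Cxcl16, Spp1 and Tnfaip2 lie higher.

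The genes that were higher in strict cKO cells belonged to several groups. Spp1, the matrix phosphoprotein osteopontin, was at 220.4 CPM (188 to 257) in cKO cells and 58.6 CPM (47.9 to 71.0) in flox cells, a log2 ratio of 1.91. Tlr2, the receptor for bacterial lipoproteins, was at 319 CPM (279 to 363) in cKO cells and 118 CPM (103 to 136) in flox cells, a log2 ratio of 1.43. Tnfaip2, a gene induced by tumour necrosis factor, was at 123 CPM in cKO cells and 22.6 CPM in flox cells, a log2 ratio of 2.45. AY036118 was first by the naming rule, at 6.43 in the strict set, and is described above. The remaining highest genes were Bcl2a1b, Txnrd1, Abl2, Rab7b, Stk40, Gla and Pdgfb, with log2 ratios of 1.49 to 1.79. Bcl2a1b has near-identical copies among which counting may divide reads. In the remaining non-neuronal cells Tnfaip2 was at 1.37, Stk40 at 1.19, Abl2 at 1.06, Txnrd1 at 1.03, Pdgfb at 0.94, Tlr2 at 0.71, Gla at 0.56 and Spp1 at 0.37, whereas Rab7b was at -0.07 and Bcl2a1b at -0.02. Bmp2 is a growth factor that gut macrophages supply to enteric neurons in mice. It was lower, at 18.0 CPM (13 UMIs) in strict cKO cells and 161 CPM in strict flox cells. Bmp2 was also lower in the remaining non-neuronal cKO cells, with a log2 ratio of -1.60.

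Lipid-handling genes had the highest list median, 0.30 over 14 measured genes, of which 2 (Spp1 and the apolipoprotein gene Apoc1) were at least 2-fold higher and 0 at least 2-fold lower. Apoe, the main apolipoprotein of macrophages and glia, was at 38214 CPM in strict cKO cells and 27741 CPM in strict flox cells, a log2 ratio of 0.46, and in the remaining non-neuronal cells it was at 0.90. The lipid receptor Trem2 was at 846 CPM in cKO cells and 626 CPM in flox cells, and the cholesterol exporter Abca1 at 323 CPM in cKO cells and 183 CPM in flox cells. Without the cells carrying border-type receptors the list median was 0.04 and Trem2 was at -0.19.

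Inflammatory cytokines and their feedback genes were mixed. Of 23 measured, 7 were at least 2-fold lower and 1, Tnfaip2, at least 2-fold higher, against the 4.46% lower and 1.89% higher over all genes of the strict set, with a median of -0.09. Those lower included the cytokine genes Il1b at -1.58 and Osm at -2.01 and the mRNA decay factor gene Zfp36 at -1.64.

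Several other lists had medians between -0.41 and 0.04, against -0.07 over all genes of the strict set. Csf1r was at 764 CPM (701 to 830) in strict cKO cells and 762 CPM (722 to 803) in strict flox cells. Of 17 complement and pattern-recognition genes 1 was higher (Tlr2) and 0 lower by 2-fold, with a median of -0.05, and of 16 Fc receptor and adaptor genes 0 passed in either direction, with a median of -0.05. The lysosome list had a median of -0.01 over 24 genes, with Npc1, the cholesterol transporter, the only one past 2-fold at 1.34. Antigen presentation (9 genes, median -0.04) and the nuclear genes of the respiratory chain (26 genes, median 0.04) had 0 genes past 2-fold in either direction. Chemokine and purinergic receptors (9 genes, median -0.29) and glycolysis and hypoxia (11 genes, median -0.41) also had 0. The upper quartile of the glycolysis and hypoxia list was -0.11, below the median of all genes. Its glycolytic genes stayed lower without the cells carrying border-type receptors, with Eno1 at -1.10, Gapdh at -0.94, Aldoa at -0.93 and Pkm at -0.84. Hif1a ran the other way there, at 0.43 (-0.23 to 1.09). The lineage list held 2 lower genes of 16, Klf2 and Id3, while Spi1 was at 0.31. Iron and haem genes had a median of -0.14 over 13, with Bach1 higher at 1.16. Without the cells carrying border-type receptors, Hmox1 and Slc48a1 were each at -1.22, whereas Bach1 was at 0.94 and Fth1 at 0.00. Growth factors had a median of -0.21 over 13, with Pdgfb higher and Bmp2 and Osm lower. Cell cycle genes had a median of -0.39 over 13, with Mcm6 lower at -1.31, but the median turned to 0.29 without the cells carrying border-type receptors. Cells with at least 2 of 10 cycling markers made up 6.17% of thinned strict cKO cells (3.00% to 11.1%) and 8.61% of thinned strict flox cells (5.70% to 12.4%).

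Ptges3, the floxed gene, was not lower in these cells. It was at 222 CPM (190 to 257) in gated cKO cells and 189 CPM (175 to 205) in gated flox cells, and in the strict set at 232 CPM (198 to 269) in cKO cells and 192 CPM (172 to 213) in flox cells, a log2 ratio of 0.27 (-0.00 to 0.54). In the remaining non-neuronal cells it was at 181 CPM in cKO and 235.5 CPM in flox, a log2 ratio of -0.38 (-0.43 to -0.33). The labels do not give the floxed exons, so 3′ counts outside them would not show a deletion. Of 9 measured prostaglandin and leukotriene genes in the strict set, 1 was at least 2-fold lower and 0 were higher, with a median of -0.34. Ptgs1, the constitutive cyclooxygenase, was at 74.9 CPM (56.2 to 97.7) in cKO cells and 93.0 CPM (79.4 to 108) in flox cells. Hpgds, a prostaglandin D synthase of macrophages, was at 225 CPM in cKO cells and 240.2 CPM in flox cells, and Hpgd, which inactivates prostaglandins, at 220.4 CPM in cKO cells and 357 CPM in flox cells. The inducible cyclooxygenase Ptgs2 had 5 UMIs in cKO cells and 47 in flox cells, a log2 ratio of CPM of -1.93. The prostaglandin E2 receptor Ptger4 was at 45.8 CPM (33 UMIs) in cKO cells and 27.6 CPM (49 UMIs) in flox cells, a log2 ratio of 0.73 (0.05 to 1.39), and both genes were under the minimum of 100 UMIs. Ptgds, the lower gene, had 2 UMIs in strict cKO cells and 226 in strict flox cells. Without the cells carrying border-type receptors, Ptgds had 2 UMIs in cKO cells and 18 in flox cells. Over all gated cells it was not 2-fold lower, since the lowest log2 ratio among the 11 genes of this list measured there was -0.72. Ptgds was at 62.3 CPM in the remaining non-neuronal cKO cells and 396 CPM in the remaining non-neuronal flox cells. In the flox library Ptgs1 was at 254 CPM in the microglia-like cells and 76.8 CPM in the Mrc1 or Pf4 cells, a log2 ratio of 1.73 (1.16 to 2.28).

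The list of heat shock genes and HSP90 partners is wider than the HSP90 group to which p23 belongs. Its median was 0.13 over 19 measured genes, against 0.28 for the same genes in the remaining non-neuronal cells. Hsph1 was the only one past 2-fold, at 154 CPM in strict cKO cells and 32.7 CPM in strict flox cells, and was also higher in the remaining non-neuronal cKO cells, at 1.62. Hsp90aa1, the inducible HSP90, was at 1291 CPM in cKO cells and 686 CPM in flox cells. Of 11 glucocorticoid receptor targets, whose receptor is an HSP90 client, Klf9 was higher at 1.27 and Dusp1 lower at -2.28, with a median of 0.07.

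**Figure D4:**
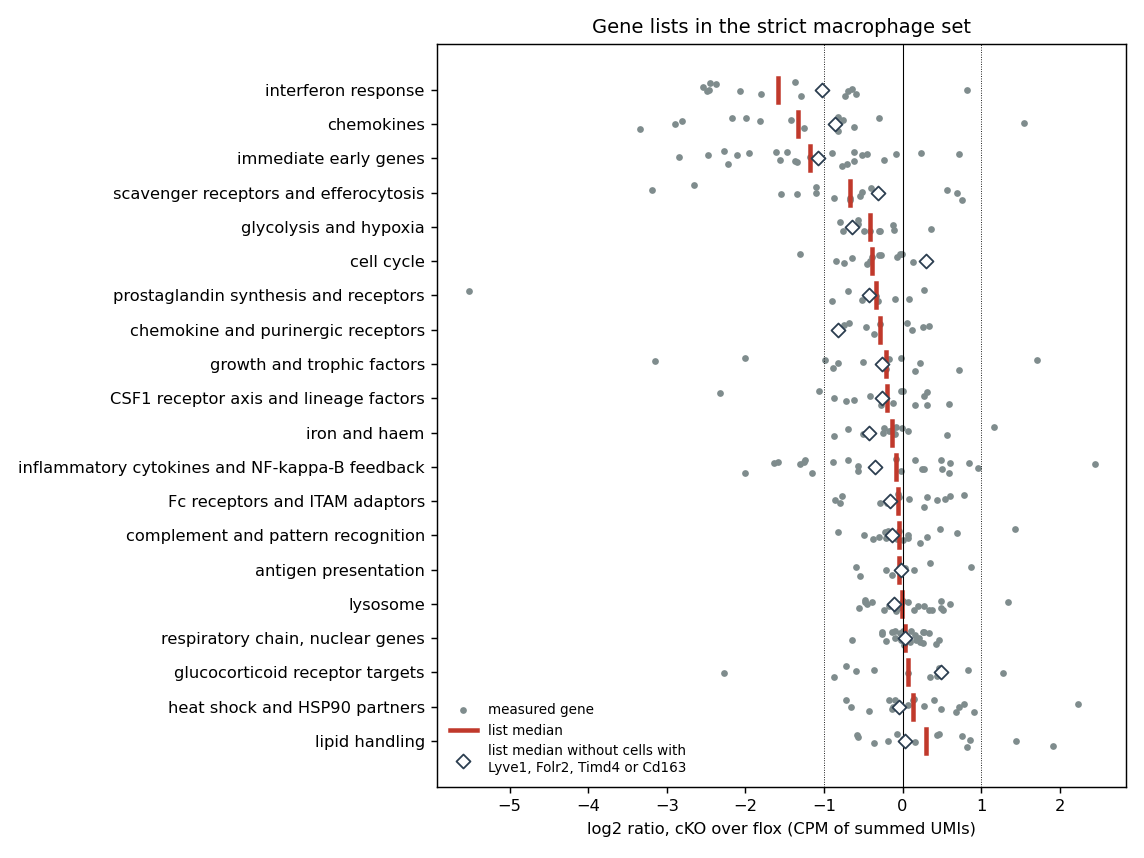
Log2 ratio of cKO over flox CPM in the strict set for each measured gene (grey points) of the 20 lists, with the list median (red bar) and the median over the same genes without cells that carry Lyve1, Folr2, Timd4 or Cd163 (open diamonds). The interferon, chemokine and immediate early lists lie furthest to the left with both sets of cells, and most other medians lie within 0.5 of 0.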

How the data were processed

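UMI counts of 2 libraries were used as deposited. The header of the flox counts names cellranger 6.1.2, and the submitters' processing notes list Cell Ranger 5.0.1, Scanpy and mm10. Neither source says if intronic reads were counted or doublets taken out. Of 9703 cKO and 10014 flox barcodes, those with 1000 UMIs or more, 500 genes or more and no more than 15% mitochondrial UMIs entered. No clustering was used. UMIs were summed over the cells of each library and divided by their total (CPM). Genes with 100 or more UMIs in both libraries combined counted as measured. Intervals are exact at the 95% level: Poisson for levels, Clopper-Pearson for shares and conditional binomial for ratios. Shares of cells with a UMI were repeated after thinning each cell to 1000 UMIs, and 0 cells were too shallow for it.

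The members and gene lists were chosen with earlier results of these data known. Named genes were drawn from the 12 highest and 12 lowest genes of each set of cells, ranked by whichever end of the interval lies closer to 0. Mitochondrial, ribosomal protein, haemoglobin, sex-linked, Gm and Rik genes and genes over 5-fold higher in other cells did not enter that ranking, and in the strict set, added after seeing the data, only genes at least 2-fold higher than in other cells did. The 15 most specific genes, the gate and marker genes, the prostaglandin genes and up to 3 extremes of each list in either direction were also named. Cxcl2, Cxcl10, Gas6, Trem2 and the genes that set the microglia-like cells apart were chosen after their values were seen. Scrublet scores were computed per library, and the highest 0.8% per 1000 cells were removed as an alternative. TMM factors from edgeR 4.0.16 were another alternative. The interval code was tested on simulated counts. In the 20 gene lists, 2 symbols had no match and were not used here. Python 3.11.15, NumPy 2.4.6, SciPy 1.17.1 and R 4.3.3 were used. Gene positions came from GENCODE vM21, which held 32158 of 32285 identifiers.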

Additional observations from a re-analysis of the deposited data

Results flagged for a closer look

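Cxcl16 ran in opposite directions in the gated cells and in the rest of the non-neuronal cells. It was higher in gated cKO cells than in gated flox cells, with a log2 ratio of 1.90 (288 CPM in cKO and 77.2 CPM in flox), and 1.55 in the strict set. In the remaining non-neuronal cells it was at 16.3 CPM in cKO and 40.9 CPM in flox, a log2 ratio of -1.32. After thinning, a Cxcl16 UMI was found in 24.7% of strict cKO cells (18.3% to 32.1%) and 9.93% of strict flox cells (6.80% to 13.9%), against 0.703% of other cKO cells and 2.04% of other flox cells. The difference between these ratios was not tested, since each genotype has 1 library.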

How the results depend on the processing

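No paired analysis was possible because each genotype has 1 library, and for the same reason no library could be left out. The lower share of gated cells in cKO kept its direction under every alternative run. Its log2 ratio was -1.02 among cells under the neuronal limit, -1.06 without cells with a Sall1, Tmem119 or P2ry12 UMI and -0.85 in the strict set, and the other 10 alternatives lay between -1.47 and -1.25. It was also -1.06 for gated cells with at least 0.3% C1q UMIs and under 1% from each other class, with or without Mrc1 or Pf4. Gene counts moved more. Of gated cells, 124 genes were higher in cKO. That number was 188 with TMM factors and with median-of-ratios factors, 23 after thinning, 60 without cells with a microglial marker, 79 without the highest Scrublet scores, 558 at a fold of 0.5 on the log2 scale, 223 with at least 50 UMIs, 534 with at least 10 UMIs, 56 at a gate of 1% and 68 in the strict set. The 442 lower genes became 63 after thinning, 197 without cells with a microglial marker, 212 without the highest Scrublet scores, 1247 at 0.5, 850 with at least 50 UMIs, 1937 with at least 10 UMIs, 284 at a gate of 0.5%, 184 at a gate of 1% and 160 in the strict set. The median log2 ratio over genes of gated cells was -0.00 with TMM factors and -0.14 without. In the strict set, the 68 higher genes became 11 after thinning, 32 without cells with a microglial marker, 25 without cells with a Lyve1, Folr2, Timd4 or Cd163 UMI and 384 at 0.5. The 160 lower genes became 38, 101, 48 and 636 under the same changes. Thinning and fewer cells leave fewer genes with 100 UMIs; the other causes were not tested. Medians of the chemokine, interferon and immediate early lists stayed between the lower and upper quartile of their genes' ratios under the alternatives run. That of the scavenger list was -0.32 without the cells carrying border-type receptors, and that of the cell cycle list turned to 0.29 there. The strict set, its alternatives and the removal of border-type cells were chosen after seeing the data. With 1 library per genotype, genotype, animal, dissection and sequencing run cannot be told apart.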

Other observations

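Barcodes outside the cell filter were not used above. Of these, 36 of 1268 in cKO (2.84%) and 71 of 1300 in flox (5.46%) met the same gate, and most of them, 28 in cKO and 63 in flox, held at least 0.3% C1q UMIs. The share among them was lower in cKO, as it was among the cells that passed.

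Further genes differed between the microglia-like flox cells and the flox cells with Mrc1 or Pf4 only. Cst3, the cysteine protease inhibitor cystatin C, was at 14812 CPM in the microglia-like cells and 3348 CPM in the Mrc1 or Pf4 cells, and the matrix protein gene Sparc was at 3814 CPM in the microglia-like cells and 796 CPM in the Mrc1 or Pf4 cells. Il1a, which encodes interleukin 1 alpha, was at 788 CPM in the microglia-like cells and 79.1 CPM in the Mrc1 or Pf4 cells. Fcna, a ficolin that starts the lectin pathway of complement, was at 10.2 CPM (2 UMIs) in the microglia-like cells and 734 CPM in the Mrc1 or Pf4 cells, and Ms4a7 was at 15.3 CPM (3 UMIs) in the microglia-like cells and 580.4 CPM in the Mrc1 or Pf4 cells.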
